A study of Mus musculus with 12 samples.

Results

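The cytosolic ribosomal protein genes were followed in hippocampal RNA of 2-month-old mice, library by library and across 4 genotypes. They were chosen by symbol: every gene of the count table whose name starts with Rpl or Rps and a number, with Rplp0, Rplp1, Rplp2 and Rpsa, and without the ribosomal protein S6 kinases, hyphenated pseudogene names and Rps19bp1. This gave 87 of 24421 genes, 53 for the large and 34 for the small subunit. The study held 12 libraries, 3 each from wild-type mice (called WT), from 5xFAD, from p75NTRko and from 5xFAD/p75NTRko, which combines both, and all mice, WT included, had been injected with BrdU, which is built into newly made DNA. 5xFAD is a model of familial Alzheimer's disease in which mutated human transgenes are driven by the Thy1 promoter and so are expressed in neurons. The label p75NTRko stands for loss of the receptor p75NTR, encoded by Ngfr, and the labels do not give the allele. The series title asks how this receptor shapes hippocampal neurogenesis in the disease model. The assay, QuantSeq, sequences the 3′ end of each polyadenylated RNA; a transcript gives a single fragment there, and levels need no correction for gene length.

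Each cytosolic ribosome joins a large and a small subunit, and nearly every one of their proteins is encoded by a single expressed gene of its own, so that the many transcripts are needed in matched amounts. Their mRNAs start with a run of pyrimidines, the TOP element, through which mTOR signalling and Larp1 control their translation, and they have left many processed pseudogenes in mammalian genomes. In neurons the same transcripts are also carried into dendrites and axons, where proteins are made close to synapses. In bulk tissue a difference in cell composition and a difference in RNA per cell cannot be told apart.

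Promoters of a few members whose values are described further on are shown first, because the members share features there that the choice by name did not use. The windows run from 85 bases before to 15 bases after the transcript start and are written in the direction of transcription, from RefSeq on GRCm38.p6. Capitals mark CCGGAAG, a motif of ETS-family factors, and CTTTCC, a pyrimidine run that can form the start of a TOP mRNA. Rps10 is on the minus strand at chr17:27635230-27635329, Rps3a1 on the minus strand at chr3:86142654-86142753, Rps12 on the minus strand at chr10:23787195-23787294, Rps21 on the plus strand at chr2:180257294-180257393 and Rps25 on the plus strand at chr9:44407629-44407728. Rps27 lies on the minus strand at chr3:90213634-90213733 and its copy Rps27rt on the minus strand at chr9:114982725-114982824.
Rps10: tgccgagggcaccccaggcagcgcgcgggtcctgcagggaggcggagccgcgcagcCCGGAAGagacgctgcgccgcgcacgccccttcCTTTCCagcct
Rps3a1: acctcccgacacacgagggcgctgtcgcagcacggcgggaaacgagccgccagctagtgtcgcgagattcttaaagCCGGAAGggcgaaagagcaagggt
Rps12: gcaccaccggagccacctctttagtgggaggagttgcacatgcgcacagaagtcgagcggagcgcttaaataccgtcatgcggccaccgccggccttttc
Rps21: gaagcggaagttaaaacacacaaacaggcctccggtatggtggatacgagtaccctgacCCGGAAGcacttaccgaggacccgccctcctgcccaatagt
Rps25: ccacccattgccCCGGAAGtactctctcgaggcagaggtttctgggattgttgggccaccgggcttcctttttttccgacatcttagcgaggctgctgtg
Rps27: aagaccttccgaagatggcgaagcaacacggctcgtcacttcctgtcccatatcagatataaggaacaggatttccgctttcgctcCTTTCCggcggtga
Rps27rt: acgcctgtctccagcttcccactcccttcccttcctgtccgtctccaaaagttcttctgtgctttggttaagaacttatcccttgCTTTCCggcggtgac

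RefSeq held promoter windows, from 250 bases before to 50 after the start, for 66 of the 87 members, and a gene counted when any of its windows matched. With both strands searched, CCGGAAG was in 26 of those 66 (39.4%), against 9.93% of 27025 mouse genes. CTTTCC was in 35 of 66 (53.0%), against 29.3% of all genes. The TATA-box letters TATAAA were in 7 of 66 (10.6%), against 15.7% of all genes. These are letter matches, and binding was not measured. CCGGAAG and CTTTCC can share their C bases where they meet, and such overlaps were found in 0 of the 66 members.

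The coding ends of some related members are shown because this assay reads the ends of transcripts and a read that fits several places was not counted. They are the last 60 coding bases, stop codon included, from GENCODE M21 on GRCm38. Transcripts run on past the stop codon, so the bases shown are not their very ends. Capitals in Rps27rt and Rps27l mark bases that differ from Rps27, and capitals in Rpl39l mark bases that differ from Rpl39. The coding sequences span chr3:90212725-90213615 (minus strand) for Rps27, chr9:114982453-114982707 (minus) for Rps27rt, chr9:66946175-66949357 (plus) for Rps27l, chrX:37082701-37085127 (minus) for Rpl39 and chr16:10174310-10174465 (plus) for Rpl39l.
Rps27: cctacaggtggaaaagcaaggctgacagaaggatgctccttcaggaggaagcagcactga
Rps27rt: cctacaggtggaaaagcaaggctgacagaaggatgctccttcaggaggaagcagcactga
Rps27l: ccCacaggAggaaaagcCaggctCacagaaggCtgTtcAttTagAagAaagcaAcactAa
Rpl39: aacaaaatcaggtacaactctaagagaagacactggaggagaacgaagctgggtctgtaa
Rpl39l: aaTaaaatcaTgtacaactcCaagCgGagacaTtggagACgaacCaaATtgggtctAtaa

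Rps27 and Rps27rt differed at 0 of these 60 bases, and Rps27l differed from Rps27 at 12. Rpl39l differed from Rpl39 at 12 as well. In the count table Rps27rt was at 0 in every library and Rps27 reached at most 0.69 CPM (gene-assigned counts scaled to a common library size, by TMM), while Rps27l, whose end is distinct, averaged 20.1 CPM.

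Gene-assigned counts numbered 4316739 to 6683613 per library, so that 3 counts, taken as the limit of measurement, stood for 0.446 to 0.690 CPM. Ngfr went against its label: it lay between 0.166 and 1.95 CPM in the 6 WT and 5xFAD libraries and between 5.95 and 10.5 CPM in the 6 libraries labelled p75NTRko or 5xFAD/p75NTRko, which are therefore named by label only. Thy1, which supplies the promoter of the transgenes, was at 1596 to 4019 CPM in libraries labelled with 5xFAD and at 688 to 940 CPM in the others. WT replicate 2 stood apart from the other libraries: the median distance of a tested gene from its median over libraries was 0.23 log2 units there, and 0.11 to 0.16 in the other 11. All 8 hippocampal neuron markers were detected, as were all 8 choroid plexus, thalamic and oligodendrocyte markers, and 4 of 5 blood markers were at 0 in every library.

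Of the 87 members, 79 had enough counts to be tested, 47 of the large and 32 of the small subunit. The other 8 were at or near the limit of measurement. Rpl10l, Rpl26 and Rps27rt had 0 counts in all 12 libraries, and Rpl34, Rpl30, Rpl39l, Rpl3l and Rps27 averaged 0.99, 0.45, 0.31, 0.27 and 0.17 CPM. Rpl3l is the muscle form of Rpl3, and Rpl10l and Rpl39l are testis forms of the X-linked Rpl10 and Rpl39. Rpl26, Rpl30, Rpl34 and Rps27, by contrast, encode core ribosomal proteins that every cell makes, and their values near 0 are given as counts of this table only. Rpl26, Rpl30 and Rpl34, which lie outside the rule for named genes, were singled out after their values were seen.

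Measured levels of the tested members spanned 192-fold, from 839 CPM to 4.37 CPM, with a median of 132 CPM. The 5 most abundant were Rps21 (839 CPM), Rps24 (752), Rps14 (730), the stalk protein Rplp1 (718) and Rps29 (712), and together they held 26.0% of all ribosomal protein counts. The 3 lowest were Rpl23a (4.37 CPM), Rpl29 (10.2) and Rpl7a (10.6). Rps21 was also among the steadiest, at 841, 866 and 798 CPM in WT, 811, 832 and 852 in 5xFAD, 813, 872 and 826 in p75NTRko, then 842, 871 and 848 in 5xFAD/p75NTRko. Its genotypes overlapped throughout. Rps24 followed at 689 to 753 CPM in WT and 674 to 870 CPM elsewhere, so that neighbours in this order, from Rps24 to Rps29, did not differ beyond the spread of their libraries.

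The low measured levels went with transcript ends that other genes also carry. For each gene 1 annotated coding transcript was chosen. Within its last 200 bases, the share of 50-base words found in the transcripts of another gene was computed, on the sense strand. Some chosen transcripts are long, such as that of Rps20 (3706 bases, 357 of them coding). Whether the chosen ends are those that the assay read was not tested. The median over 85 members with an annotated coding transcript was 37.7%, and 52 of the 85 (61.2%) shared at least 1 word. Among 12115 other protein-coding genes tested the median was 0% and 4.09% shared any. By measured level, the median shared part was 14.6% for the 26 members at or above 200 CPM, 35.8% for the 33 from 50 to under 200 CPM and 67.5% for the 26 under 50 CPM. These are descriptions across genes, which are not replicates.

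Single members show how uneven this was. Rps27 shared 100% of its end with other genes, Rps27rt among them, and Rpl26, Rpl30 and Rpl34 shared 67.5%, 70.2% and 46.4%. Rpl10, an X-linked protein near the ribosome's catalytic centre, shared 100% and averaged 24.7 CPM. Rpl36a shared 100% too and yet averaged 224 CPM, so a shared end did not always go with a low value. In the transcripts chosen, Rps24, Rps25, Rplp0, Rplp2, Rpsa, Rpl5, Rpl11 and Rpl39 shared 0%. Some of these transcripts are long, such as that of Rps24 with 1613 bases, 399 of them coding. Other ends of the same genes were not examined, so their reads may still fit several places.

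**Figure D1:**
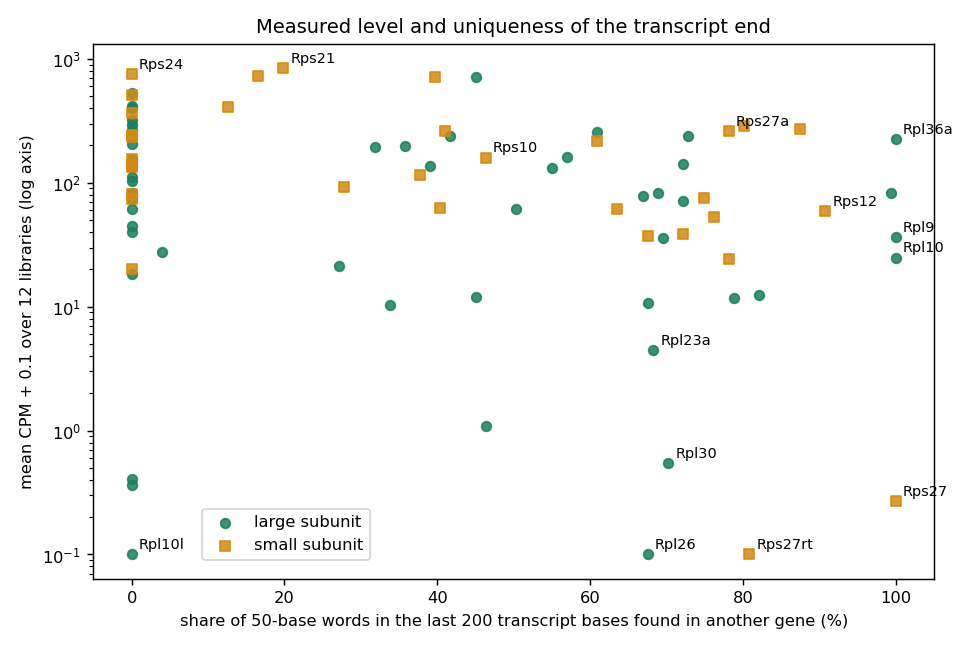
Mean CPM plus 0.1 over 12 libraries (log axis) against the share of 50-base words in the last 200 transcript bases that another gene carries, for 85 members; green circles are large and orange squares small subunit genes. Rps24 and Rps21 sit at the upper left, Rps27, Rps27rt, Rpl26 and Rpl30 at the lower right, and Rpl36a stands at the upper right with a fully shared end and 224 CPM.

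Ribosomal protein genes took between 1.37% and 1.52% of gene-assigned counts in every library. The 3 WT libraries were at 1.41%, 1.46% and 1.44% (mean 1.44% ± 0.026, SD, n = 3) and the 3 5xFAD libraries at 1.37%, 1.38% and 1.41% (1.39% ± 0.022). The p75NTRko-labelled libraries were at 1.49%, 1.52% and 1.45% (1.48% ± 0.034) and those labelled 5xFAD/p75NTRko at 1.44%, 1.46% and 1.46% (1.45% ± 0.012). 5xFAD libraries overlapped with WT at their upper end and lay below all 6 libraries that carry the receptor label. This separation depended on the scaling: with TMM-scaled library sizes, as used for CPM, 5xFAD replicate 3 was at 1.4415%, above p75NTRko replicate 3 (1.4386%) and 5xFAD/p75NTRko replicate 1 (1.41%). Wilson 95% intervals were at most 0.0115 percentage points to either side. They cover counting error only and not the spread between mice. Copies made by amplification cannot be recognised in these libraries, so the intervals may be too narrow even for counting error.

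The count of large over small subunit transcripts was 0.908, 0.887 and 0.889 in WT and 0.942, 0.947 and 0.939 in 5xFAD. It was 0.912, 0.909 and 0.896 in p75NTRko, then 0.922, 0.930 and 0.897 in 5xFAD/p75NTRko. The 3 5xFAD libraries were thus above the other 9. Leaving out Rps27a and Rps12, small subunit genes whose steps are described below and which were picked after their values were seen, the ratio was 0.918 to 0.942 in WT, 0.952 to 0.973 in 5xFAD, 0.953 to 0.969 in p75NTRko and 0.941 to 0.993 in 5xFAD/p75NTRko. 5xFAD then stayed above WT and overlapped with both receptor-labelled genotypes.

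**Figure D2:**
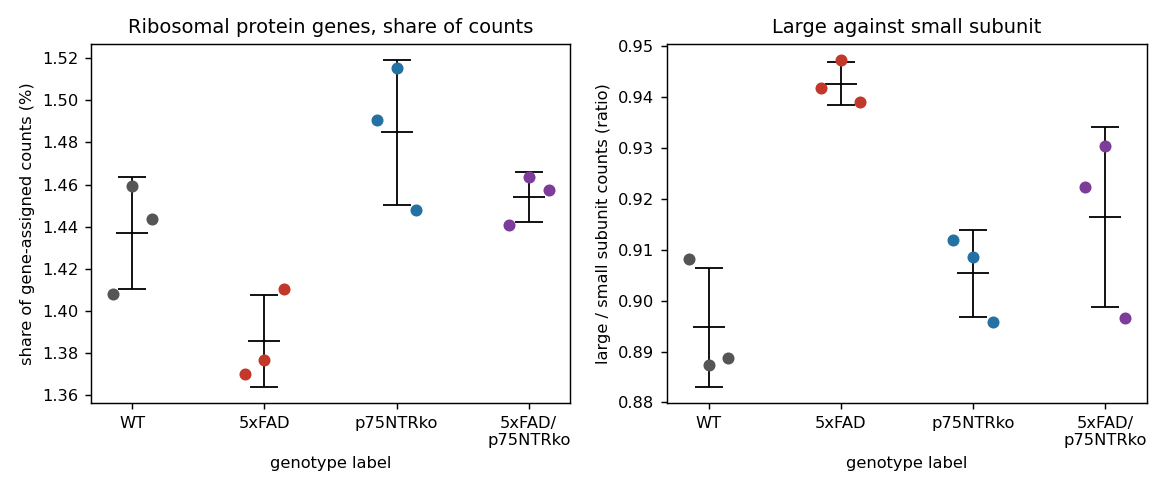
Left, ribosomal protein share of gene-assigned counts (%); right, ratio of large to small subunit counts; points are libraries, and bars give the mean and SD of 3 per genotype on axes that do not start at 0. The 5xFAD libraries lie at 1.37% to 1.41% in share, overlapping WT, and above all others in ratio (0.939 to 0.947).

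Most members held nearly the same level in all libraries. The median SD of log2 CPM within genotypes was 0.12 over the 79 tested members, against 0.22 over all genes tested and 0.15 over 6764 other genes at or above the members' 10th percentile of mean log2 CPM, a floor with no upper limit. For 50 of the 79, the highest library was under 1.5 times the lowest. Rps25, a small subunit protein, showed this best, at 234, 226 and 241 CPM in WT, 228, 224 and 239 in 5xFAD, 236, 244 and 229 in p75NTRko, then 240, 245 and 249 in 5xFAD/p75NTRko. The deviations left within genotypes, after each genotype's mean was taken out, showed little common movement. Over 3081 pairs of members the median Pearson correlation across 12 libraries was 0.04, and 53.7% of pairs were above 0. Between a member and any other tested gene the median was -0.0023. Shifts that members share between genotypes do not enter this measure.

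**Figure D3:**
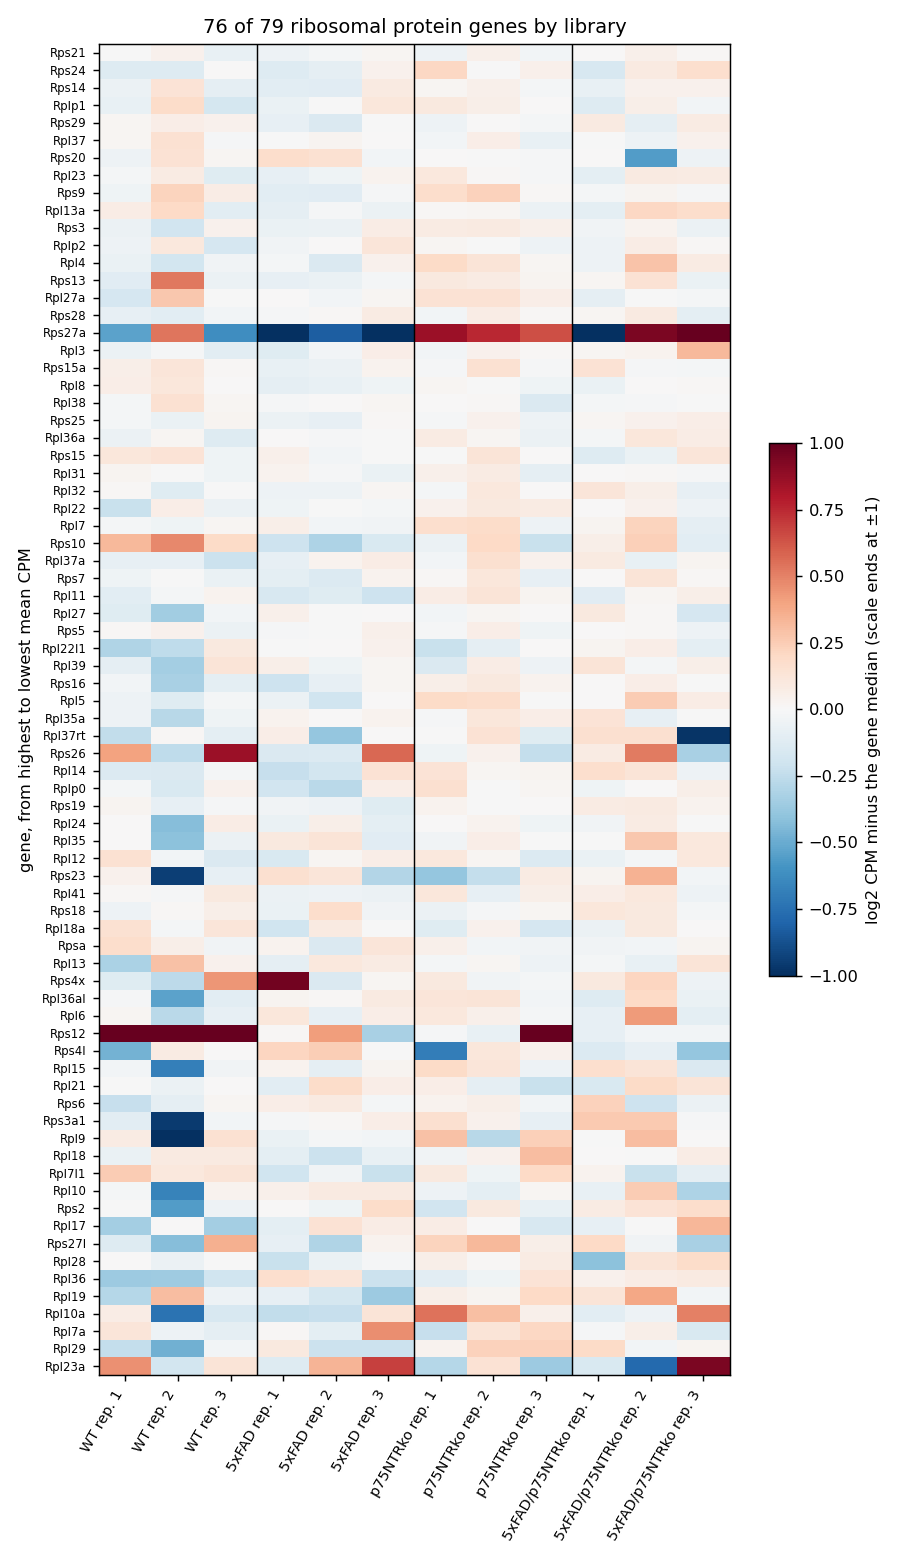
Log2 CPM minus the gene's median over libraries (colour, ends at ±1) for 76 of the 79 tested members, from the highest to the lowest mean CPM, in 12 libraries grouped by genotype. Most cells are pale; Rps27a and Rps12 form bands that cross genotypes, and the column of WT replicate 2 holds the blue cells of Rps3a1, Rpl9 and Rps23.

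Rps27a broke this pattern most widely, with an SD within genotypes of 0.73 log2 units, the largest of the 79. It encodes ubiquitin fused to a small subunit protein and so supplies both. Its level was 161, 338 and 152 CPM in WT, 85.4, 132 and 65.0 in 5xFAD, 422, 393 and 365 in p75NTRko, then 109, 449 and 474 in 5xFAD/p75NTRko. The libraries fell into 6 at or below 161 CPM and 6 at or above 338 CPM, and WT and 5xFAD/p75NTRko had libraries on both sides. The gap between these sides, 1.07 log2 units, was as wide or wider in 1.84% of all tested genes. The transcript end of Rps27a shared 78.1% of its words with 11 other genes, all pseudogenes, and whether this bears on the step was not tested.

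Rps12, a small subunit protein, also moved in a step. It was at 99.4, 94.6 and 89.4 CPM in WT, 42.3, 56.1 and 33.4 in 5xFAD, 41.5, 39.8 and 88.3 in p75NTRko, then 39.5, 41.1 and 41.1 in 5xFAD/p75NTRko. All 3 WT libraries and p75NTRko replicate 3 were high and the other 8 were low, with a gap of 0.65 log2 units that 7.67% of tested genes equalled or exceeded. Its end shared 90.7% of its words with 22 other genes, 21 of them pseudogenes. The nearest tested genes on either side, looked up after these values were seen, were not higher in WT. Tbpl1 was at 106 to 118 CPM in WT and 114 to 136 in 5xFAD, and Slc18b1 at 12.8 to 13.1 and 13.5 to 17.5. Only Slc18b1, from chr10:23796859, lies close to Rps12, whose promoter window starts at chr10:23787195. Tbpl1 ends far from it, at chr10:22732666.

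Rps26, a small subunit protein near the exit of the mRNA, varied within genotypes with an SD of 0.41. It was at 136, 86.3 and 187 CPM in WT, 93.0, 93.3 and 153 in 5xFAD, 99.7, 106 and 87.0 in p75NTRko, then 109, 147 and 82.0 in 5xFAD/p75NTRko. Its 4 high libraries came from 3 genotypes. Rpl23a varied more (SD 0.53), but its level of 2.14 to 7.87 CPM lies close to the limit of measurement.

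Single libraries set other members apart, which were noticed after their values were seen. WT replicate 2 was alone at the bottom for Rps3a1 (19.0 CPM, against 34.7 to 44.8 in the other 11), Rpl9 (17.9 against 29.7 to 44.6) and Rps23 (43.8 against 64.3 to 107). It was the lowest library for 24 of the 79 members (30.4%), and for 20.1% of all tested genes. It lay at least 0.5 log2 units low for 9 members (11.4%) and for 13.6% of all tested genes, so the displacement was not confined to ribosomal protein genes. The X-linked Rps4x stood at 112 CPM in 5xFAD replicate 1 and at 47.7 to 77.8 elsewhere, Rpl37rt at 67.5 CPM in 5xFAD/p75NTRko replicate 3 against 103 to 150, and Rps20 at 348 CPM in 5xFAD/p75NTRko replicate 2 against 497 to 580.

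**Figure D4:**
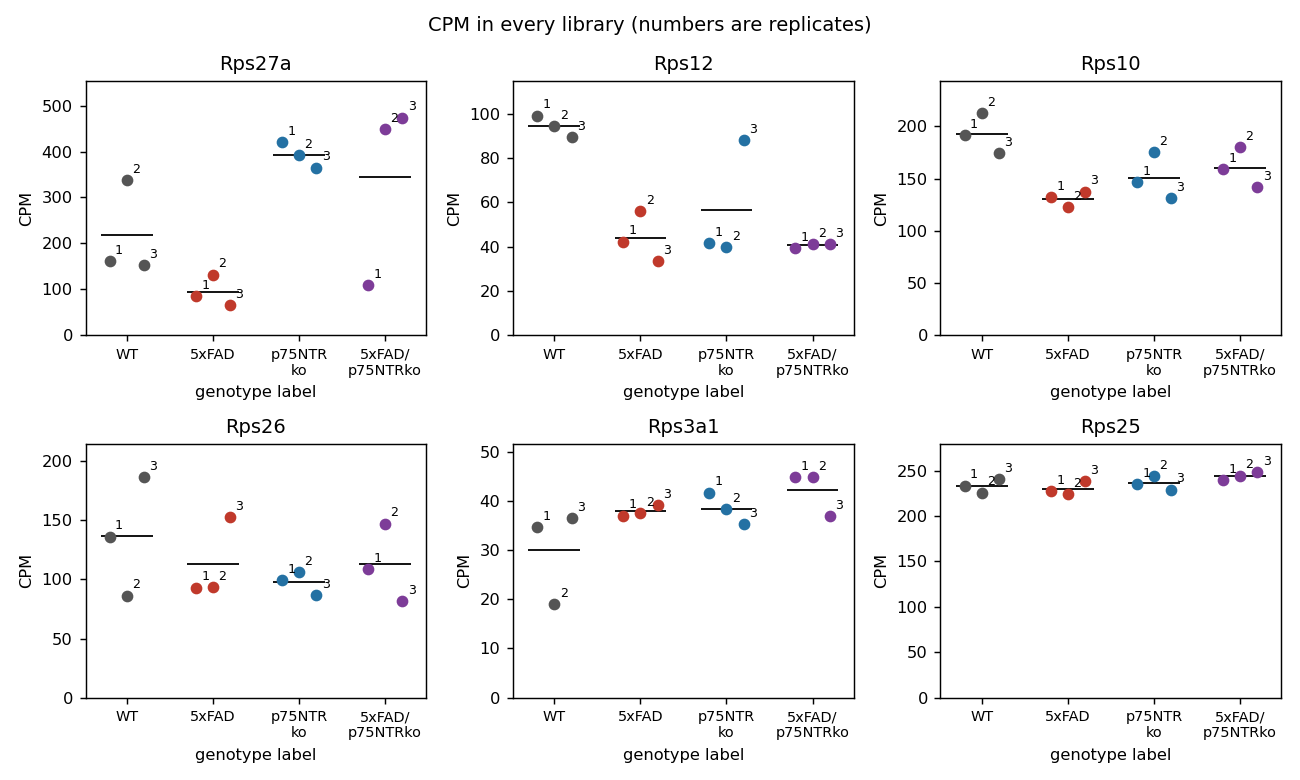
CPM in each of 12 libraries (points, numbered by replicate; lines are means of 3) for 5 members with large differences between libraries or genotypes and for the steady Rps25. Rps27a splits into 6 low and 6 high libraries, Rps12 into 4 high and 8 low, Rps10 is lowest in 5xFAD, and Rps3a1 drops in WT replicate 2 only.

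The effect of the transgene was asked by comparing 5xFAD with WT. All WT libraries were high and all 5xFAD libraries low in Xist, the RNA of the silenced X chromosome, as given further on. Transgene and Xist level therefore cannot be told apart in this comparison. No member passed the threshold (edgeR quasi-likelihood test, Benjamini-Hochberg adjusted over 13065 genes, adjusted p under 0.05), where 0.0536% of all genes tested did. DESeq2 called 2 members (Rps10 and Rps12), and 0.85% of all genes. At an unadjusted p under 0.05, 1 member was higher and 4 were lower, 1.27% and 5.06% of members, with 7.73% and 6.14% of all genes higher and lower. Libraries did not overlap for 7 members that were higher and 9 that were lower (8.86% and 11.4%), with 10.5% and 9.02% of all genes. The median log2 fold change over members was 0.02, over all genes -0.0036, and 45 of 79 were above 0; with library sizes scaled to total counts alone the median was -0.0065 and 37 were above 0, so the family had no direction here.

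Rps10, a small subunit protein, had the smallest p in that comparison. It was at 192, 213 and 174 CPM in WT, 132, 123 and 137 in 5xFAD, 146, 175 and 131 in p75NTRko, then 159, 180 and 141 in 5xFAD/p75NTRko. Every 5xFAD library lay below every WT library, by -0.56 log2 units (SE 0.12, edgeR adjusted p = 0.116; 0.0106 to 0.949 over 15 alternatives). Without WT replicate 3 it passed, where 0.431% of all genes did. Leaving out that library, the WT library nearest to 5xFAD for Rps10, widens the difference by itself. The genes on either side on chromosome 17 were looked up after this. Pacsin1, a regulator of membrane trafficking at synapses, was at 637, 600 and 576 CPM in WT and 425, 434 and 464 in 5xFAD (log2 fold change -0.45, SE 0.14, edgeR adjusted p = 0.236). Nudt3, a hydrolase, was at 854, 861 and 740 CPM in WT and 652, 669 and 725 in 5xFAD (-0.26, SE 0.11, edgeR adjusted p = 0.319). GENCODE M21 also holds a readthrough of Rps10 and Nudt3, entered as a gene of its own, that carries 41.1% of the words in Rps10's end. Reads from those words fit both Rps10 and this entry. Whether the counting used this entry is not given, and the end of Nudt3 itself was not examined.

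Rps12 was lower in 5xFAD by -1.10 log2 units (SE 0.25, edgeR adjusted p = 0.119; 0.00583 to 0.797 over 15 alternatives), with libraries apart. Rps27a was lower by -1.20 (SE 0.43, edgeR adjusted p = 0.280), and without WT replicate 2 by -0.73. The other members with an unadjusted p under 0.05 were Rpl7l1, a relative of Rpl7 (-0.32), and Rpl36 (0.35), which is named here because of its value.

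The receptor label was examined by comparing p75NTRko with WT. No member passed the threshold in edgeR or in DESeq2, and 0% of all genes did in edgeR and 0.327% in DESeq2. At an unadjusted p under 0.05, 4 members were higher and 2 lower (5.06% and 2.53%, with 5.33% and 6.16% of all genes). The family leaned upward, with 57 of 79 members above 0 (72.2%, with 49.9% of all genes). The median log2 fold change was 0.07 against -0.00063 over all genes. Without overlap, 13 members were higher (16.5%, with 7.93% of all genes) against 2 lower (2.53%, with 8.5%). The lean was larger in the large subunit, where 38 of 47 members were above 0, than in the small, with 19 of 32, and the difference was not tested. Without WT replicate 2 the median was 0.07, with 55 of 79 above 0.

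In p75NTRko, Rps12 was lower than in WT by -0.73 log2 units (SE 0.24, edgeR adjusted p = 0.337). Without p75NTRko replicate 3, the library with a WT-like level, it was lower by -1.22 and passed the threshold (edgeR adjusted p = 0.0323), as did 0.0226% of all genes. That library was picked for its Rps12 value, so the larger difference follows from the choice. Rps27a was 0.86 higher (edgeR adjusted p = 0.45), with p75NTRko libraries all above WT.

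Within transgene carriers, 5xFAD/p75NTRko was compared with 5xFAD. All libraries of the former were high and all of the latter low in Xist, so receptor label and Xist level cannot be told apart here. No member passed in edgeR or in DESeq2, where 0.0383% and 0.125% of all genes did. At an unadjusted p under 0.05, 2 members were higher and 1 lower (2.53% and 1.27%, with 1.98% and 3.10% of all genes). The median was 0.05, against 0.01 over all genes, and 54 of 79 members were above 0 (68.4%, with 52.8% of all genes). Without overlap, 9 members were higher (11.4%, with 5.18% of all genes) against 1 lower (1.27%, with 6.02%). Rps27a differed most, by 1.87 log2 units (SE 0.44, edgeR adjusted p = 0.336), and its libraries overlapped, because 5xFAD/p75NTRko replicate 1 sat at the 5xFAD level. Without that library the difference was 2.30 (edgeR adjusted p = 0.0100), with 0.0529% of all genes past the threshold. The library left out was picked for its Rps27a value, so the larger difference follows from the choice. Rps10 was 0.29 higher (SE 0.12, edgeR adjusted p = 0.878).

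Between 5xFAD/p75NTRko and p75NTRko no member passed in edgeR or DESeq2, with 0% of all genes called by edgeR and 0.167% by DESeq2. No member had an unadjusted p under 0.05 in either direction, where 3.60% of all genes were higher and 2.99% lower. Libraries did not overlap for 1 member that was higher and 2 that were lower (1.27% and 2.53%, with 6.54% and 5.74% of all genes). The smallest p belonged to Rps12 (-0.49, SE 0.25, edgeR adjusted p = 0.790), which without p75NTRko replicate 3 differed by -0.0027.

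Against WT, 5xFAD/p75NTRko had no member past the threshold in edgeR, where 0% of all genes passed, and 1 in DESeq2 (Rps12), where 0.222% did. At an unadjusted p under 0.05, 3 members were higher and 2 lower (3.8% and 2.53%, with 5.51% and 4.44% of all genes). The median was 0.06, against 0.0042 over all genes, and 55 of 79 members were above 0 (69.6%, with 50.8% of all genes). Libraries did not overlap for 10 that were higher (12.7%, with 5.95% of all genes) and 2 that were lower (2.53%, with 5.53%). Rps12 was lower by -1.22 (SE 0.25, edgeR adjusted p = 0.141; 0.00120 to 0.666 over 15 alternatives), with every library below every WT library. Rps3a1 was 0.49 higher (SE 0.19, edgeR adjusted p = 0.472), and 0.24 higher without WT replicate 2. The comparisons with WT share the 3 WT libraries, and those with 5xFAD share the 3 5xFAD libraries, as those of the receptor label share theirs, so their values for a member are not independent.

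Whether the receptor label changed the effect of the transgene was tested as an interaction. The difference in Xist between 5xFAD and WT enters it too and cannot be told apart from it. No member passed in edgeR or DESeq2, with 0.0383% of all genes called by edgeR and 0.192% by DESeq2. At an unadjusted p under 0.05, 1 member was higher and none lower (1.27% and 0%, with 5.19% and 4.13% of all genes). That member was Rps10, at 0.65 (SE 0.17, edgeR adjusted p = 0.331; 0.125 to 0.998 over 20 alternatives): its log2 fold change with the transgene was -0.56 without and 0.09 with the receptor label. The members' median was -0.0070, with 38 of 79 above 0, and 0.0037 with 41 above 0 when library sizes were total counts.

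**Figure D5:**
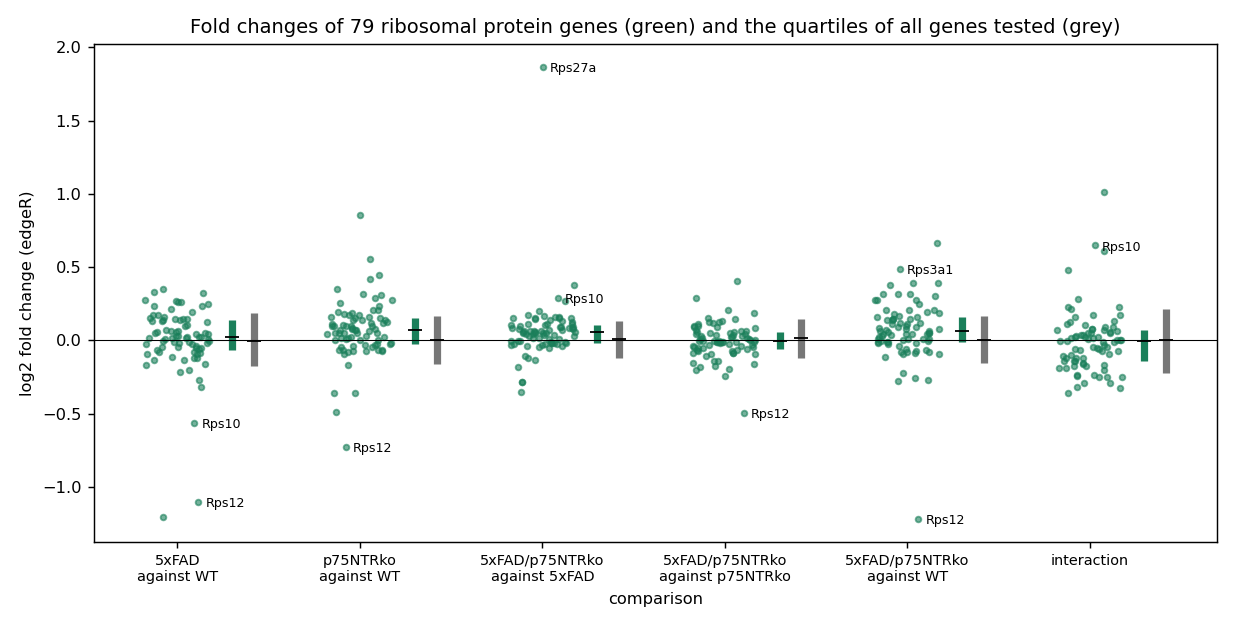
Log2 fold changes (edgeR) of 79 members in 6 comparisons (green points), with bars from the lower to the upper quartile and the median (black dash) of the members in green and of all 13065 tested genes in grey; members of smallest p that the text describes are named. The members' bars are shorter than those of all genes, Rps27a, Rps12 and Rps10 lie far out, and the members' medians are 0.05 to 0.07 in the comparisons of receptor-labelled libraries with WT or 5xFAD.

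The stalk proteins Rplp0, Rplp1 and Rplp2 recruit the elongation factors to the large subunit. Rplp0 was at 103, 94.0 and 108 CPM in WT and 91.3, 86.9 and 109 in 5xFAD, and at 117, 104 and 106 in p75NTRko, then 102, 105 and 109 in 5xFAD/p75NTRko. Rplp1 was at 632 to 812 CPM and Rplp2 at 284 to 348 CPM over all libraries. The genotypes overlapped for all 3 genes. Their log2 fold changes in the 5 pairwise comparisons lay between -0.09 and 0.13. Rpsa, which doubles as a laminin receptor, was at 66.5 to 83.1 CPM, and its fold changes lay between -0.08 and -0.01.

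X-linked members were described by themselves because the libraries differ in Xist, the RNA of the silenced X chromosome: it was at 360 to 439 CPM in all WT and 5xFAD/p75NTRko libraries and p75NTRko replicate 1, and at 1.53 to 3.58 CPM in all 5xFAD and the other 2 p75NTRko libraries. All 5xFAD libraries were thus of the low and all WT libraries of the high class, and only p75NTRko held both. With the class as a term in the model, no member passed in any comparison, as without it. The term rests on p75NTRko alone, with 1 library of the high and 2 of the low class. Class and transgene therefore cannot be told apart by this fit. The median over members in 5xFAD against WT was then 0.0051. In 5xFAD/p75NTRko against 5xFAD 49 of 79 members were then above 0 (median 0.04), and in p75NTRko against WT 52 were (median 0.08). Rpl10, Rpl36a, Rpl39 and Rps4x were all above 0 in that comparison, at 0.26, 0.05, 0.10 and 0.32, and none passed the threshold. Rpl36a, the most abundant, was at 215, 226 and 204 CPM in WT and 224, 221 and 223 in 5xFAD. Rpl39 was at 130, 109 and 151 CPM in WT and 143, 134 and 140 in 5xFAD. Both overlapped between the genotypes. Rpl10 did not: it was at 25.1, 15.9 and 26.0 CPM in WT and 26.3, 27.0 and 27.1 in 5xFAD, just above (edgeR adjusted p = 0.514). Rps4x overlapped.

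Paralog-type members are relatives of a main gene. Rpl22l1, the partner of Rpl22, was well expressed, at 137 CPM over all libraries with 193 CPM for Rpl22. Rpl22l1 was at 115, 119 and 152 CPM in WT and 142, 143 and 147 in 5xFAD, and Rpl22 at 165, 202 and 185 in WT and 187, 193 and 191 in 5xFAD. Neither pair separated. Rpl36al averaged 61.6 CPM, Rps4l 55.1, Rpl7l1 27.5 and Rps27l, a p53-regulated relative of Rps27, 20.1. Rpl7l1 was at 32.6, 29.4 and 29.9 CPM in WT and 23.8, 26.7 and 23.4 in 5xFAD, with libraries apart (edgeR adjusted p = 0.306). Rpl3, the partner of the undetected Rpl3l, averaged 257 CPM.

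Other members with known roles beyond the ribosome's core differed little, and none of those described next passed the threshold. Rpl5 and Rpl11 bind Mdm2 when ribosome assembly fails and so link it to p53. Rpl5 was at 127, 121 and 130 CPM in WT, 126, 115 and 131.7 in 5xFAD, 150, 149 and 131 in p75NTRko, then 132.1, 157 and 139 in 5xFAD/p75NTRko. Rpl11 was at 142, 151 and 157 CPM in WT, 137, 141 and 132 in 5xFAD, 161, 167 and 155 in p75NTRko, then 142, 155 and 159 in 5xFAD/p75NTRko. For both, 5xFAD/p75NTRko lay above 5xFAD without overlap (edgeR adjusted p = 0.97 and 0.98). Rpl5 was also above WT without overlap in p75NTRko and in 5xFAD/p75NTRko (0.19 and 0.18 log2 units), and Rpl11 was below WT without overlap in 5xFAD (-0.13). Rps6, the target of the S6 kinases, was at 32.9 to 45.3 CPM. Rps19, mutated in Diamond-Blackfan anaemia, was at 95.1 to 99.0 CPM in 5xFAD/p75NTRko, above the other 9 libraries at 85.2 to 94.9. Rpl38, which favours the translation of some homeobox mRNAs, was at 216 to 265 CPM. The log2 fold changes of Rps6, Rps19 and Rpl38 in the 5 pairwise comparisons stayed between -0.09 and 0.14.

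Genes that act with the ribosome were counted for comparison, from lists chosen with earlier results of these data known. Of 19 elongation factors and other TOP-type mRNAs, 34 ribosome biogenesis genes, 15 genes of mTOR and TOP control and 77 mitochondrial ribosomal proteins, none passed the threshold in any of the 6 comparisons. In p75NTRko against WT, 14 of the 19 TOP-type transcripts were above 0 with a median of 0.09, beside 40 of 77 mitochondrial ribosomal proteins with a median of 0.0057 and 16 of 34 biogenesis genes with a median of -0.01. In 5xFAD/p75NTRko against 5xFAD 3 of these lists leaned upward as well: 49 of 77 mitochondrial ribosomal proteins were above 0 with a median of 0.06, 23 of 34 biogenesis genes with a median of 0.07 and 13 of 19 TOP-type transcripts with a median of 0.03, beside 54 of the 79 members with 0.05.

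Marker RNA of neighbouring tissue and of other cells differed between genotypes, and that of choroid plexus also differed widely within some of them. The first values are for WT and p75NTRko. The 8 hippocampal neuron markers summed to 972 to 1345 CPM in WT and 1498 to 1644 CPM in p75NTRko. Of the 8, 6 were above 0 in p75NTRko against WT and 2 were below. The 8 thalamus and habenula markers summed to 485 to 725 CPM and 275 to 324 CPM. The striatal markers, of which Drd2 was at 0 in every library, summed to 173 to 239 CPM and 134 to 151 CPM. In 5xFAD the neuron, thalamus and striatum sums were 1424 to 1725, 318 to 371 and 139 to 157 CPM, also apart from WT. In 5xFAD/p75NTRko they were 1118 to 1628, 257 to 853 and 123 to 148 CPM, and only the striatal sums lay apart from WT. Choroid plexus markers ran from 64.9 to 6340 CPM over libraries, with 2014 to 5057 CPM in WT and 3876 to 6340 CPM in p75NTRko. In 5xFAD/p75NTRko against 5xFAD all 8 oligodendrocyte markers were below 0 (median log2 fold change -0.42). Of these, 3 were lower without overlap, as were 6.02% of all genes. Their sums were 5304 to 7641 CPM in 5xFAD and 4044 to 5277 CPM in 5xFAD/p75NTRko. All 8 choroid plexus markers were above 0 there (median 0.85), with overlapping sums of 161 to 1576 CPM and 64.9 to 6239 CPM. In 5xFAD/p75NTRko against WT all 8 oligodendrocyte markers were below 0 (median -0.25), and in 5xFAD against WT all 8 choroid plexus markers were (median -1.41). Of the choroid plexus markers, 5 were lower there without overlap, as were 9.02% of all genes. None had an unadjusted p under 0.05, and their smallest edgeR adjusted p was 0.433. The part of these markers in the differences of ribosomal protein genes was not tested.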

How the data were processed

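Raw counts per gene symbol for 12 libraries were used as the authors deposited them, with no normalization recorded in the table. Per the submitters' processing notes, FastQC, HISAT2, SAMtools, HTSeq and edgeR were used with the mm10 build; versions, annotation and strand setting are not given in the sources used here. The 5 summary lines of the table were left out of library sizes; they held 28.9% to 33.5% of reads outside any feature and 9.57% to 12.1% aligned to several places, and 32.2% to 38.5% of reads were assigned to genes. Values of members with close copies, or with genes that overlap them on either strand, are therefore uncertain.

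In R 4.3.3, edgeR 4.0.16 filtered genes with filterByExpr, scaled library sizes by TMM (factors 0.975 to 1.03) and fitted all 12 libraries in a single quasi-likelihood model, each genotype with its own mean. P-values of 6 comparisons were adjusted by Benjamini-Hochberg over 13065 genes, with a threshold of 0.05. Log2 CPM used a prior count of 2. Depth of 4316739 to 6683613 counts per library sets the precision. The smallest p of an exact two-sided permutation test between genotypes of 3 is 0.1. The procedure was tested on simulated data. Transcript ends came from GENCODE M21 and promoters and positions from RefSeq (GRCm38.p6), both on the mm10 assembly.

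Named were the stalk, X-linked and paralog-type members with their partners, Rpsa, Rpl5, Rpl11, Rps6, Rps19, Rps25, Rpl38 and Rps27a, then the 5 most and 3 least abundant tested members, the 3 with the largest SD within genotypes, and per comparison the members past the threshold or else the 2 smallest p-values. A few genes that this rule names are not reported here. Others are said to be chosen after their values were seen. The members and lists were chosen with earlier results of these data known. Replicates are labelled biological, and their numbers were not taken to pair mice. Alternatives were DESeq2 1.42.0, other scalings, other filters on low counts, a replicate block, Xist class as a term, only the compared genotypes, and leaving out each library.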

Additional observations from a re-analysis of the deposited data

Results flagged for a closer look

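Of 7 pseudogene-named genes outside the naming rule, 3 carried counts above the limit of 3 in every library. Rpl14-ps1 held 6314 counts summed over the 12 libraries, at 99.4, 129 and 101 CPM in WT and 76.8 to 93.8 CPM in the other 9 libraries, and was lower in 5xFAD/p75NTRko than in WT by -0.45 log2 units without passing the threshold (SE 0.11, edgeR adjusted p = 0.254). Rps19-ps3 held 3127 counts, at 13.5 CPM in 5xFAD replicate 3 and 42.6 to 61.1 CPM in the other 11. Rps15a-ps6 held 349 counts, at 3.42 to 6.95 CPM.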

How the results depend on the processing

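Named member results were recomputed under 355 combinations with alternatives: 343 kept their direction and side of the threshold, 12 kept their direction and passed it, and 0 reversed. These members were picked by their small p in the same libraries and none had passed, so such counts are no independent check. A kept direction can also be a difference near 0, as for Rps12 in 5xFAD/p75NTRko against p75NTRko without p75NTRko replicate 3 (-0.0027). In 5xFAD against WT the members called rose from 0 to 2 with no filter on low counts and to 2 with DESeq2 (Rps10 and Rps12 both times) and to 1 with only the compared genotypes (Rps12), while calls over all genes rose from 7 to 44, 102 and 19. In 5xFAD/p75NTRko against WT they rose to 1 with no filter, with only the compared genotypes and with DESeq2 (Rps12), with all-gene calls of 16, 1 and 32 against 0, and in 5xFAD/p75NTRko against 5xFAD to 1 with no filter (Rps27a), with 14 against 5. The cause was not tested. Leaving out each library in turn gave 0 to 1 called members in 5xFAD against WT (1, Rps10, without WT replicate 3), 0 to 1 in p75NTRko against WT and 0 to 1 in 5xFAD/p75NTRko against 5xFAD, and 0 in the other comparisons. The members' median log2 fold change then ran from -0.018 to 0.042 in 5xFAD against WT, and from -0.042 to 0.019 in the interaction. It ran from 0.05 to 0.09 in p75NTRko against WT, 0.03 to 0.08 in 5xFAD/p75NTRko against 5xFAD, -0.02 to 0.02 against p75NTRko and 0.04 to 0.09 against WT. With total counts as library size it was -0.0065 in 5xFAD against WT, where 37 of 79 members were above 0, and 0.0037 in the interaction.

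The share of counts was 1.41%, 1.35%, 1.45% and 1.42% in WT, 5xFAD, p75NTRko and 5xFAD/p75NTRko without paralog-type members, 1.06%, 1.02%, 1.10% and 1.08% without the 5 most abundant, and 0.514%, 0.457%, 0.530% and 0.515% of all reads in the table. Without Rps27a and Rps12, chosen after seeing the data, it was 1.41%, 1.37%, 1.44% and 1.42%. Leaving out a library gave 1.43% to 1.45%, 1.37% to 1.39%, 1.47% to 1.503% and 1.45% to 1.46%.

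Same-numbered libraries of different genotypes did not deviate together (median correlation -0.02 over 18 pairs, against 0.0014 over 36 others). A replicate block gave 0 called members in each of the 6 comparisons, as the fit without it. Genotypes of 3 libraries limit what could be called, and members near 3 counts cannot be compared at this depth.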
